A study of Mus musculus with 47 samples.

Results

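The 8 genes described here encode complement proteins that macrophages are known to make: the C1q chains C1qa, C1qb and C1qc, the central component C3, its receptor C3ar1, factor B (Cfb), properdin (Cfp) and the C1 inhibitor (Serping1). They were found by symbol among the 51912 genes of the bone marrow-derived macrophage (BMDM) tables and among the genes of the Raw264.7 tables, the longest of which lists 23772. All 8 were listed in every one of the 7 tables, and they were followed across all 12 RNA-seq libraries of the series.

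Complement is a cascade of blood and tissue proteins that marks microbes and dying cells. C1q binds the target in the classical pathway, and in the alternative pathway factor B joins C3b to form the enzyme that cleaves more C3, with properdin holding that enzyme together. C3a, the small fragment of C3, signals through C3ar1, and the C1 inhibitor blocks the proteases that travel with C1q. Most complement proteins in plasma come from the liver, whereas C1q comes largely from macrophages and dendritic cells.

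BMDMs came from C57BL/6 mice. WT animals were littermates that carried the floxed Zmynd8 fl/fl allele without Cre, and in Zmynd8 cKO animals a heterozygous Lyz2-Cre allele drove deletion in myeloid cells. Bone marrow was grown for 5 days in M-CSF and then left untreated (NT, M0), given LPS at 100 ng/ml (M1) or given IL-4 at 20 ng/ml (M2) for 6 h. The age of the donor mice is not given in the sources used here. Raw264.7 is a mouse macrophage cell line, also labelled C57BL/6. In 1 set of lines Zmynd8 was knocked out with a lentiviral guide RNA (Zmynd8 KO) and WT Zmynd8 or D/E-A was put back. D/E-A is a mutant in which the acidic residues of the disordered region are alanine. In the other set p65 (Rela) was knocked out and WT p65 or the K122R mutant was put back, all after LPS. The study describes LPS for the WT Zmynd8 and D/E-A libraries, while the Zmynd8 KO label gives no treatment. The WT p65 library was read from a column whose header says WT and LPS but not p65 KO, which leaves unmodified Raw264.7 cells possible. The labels do not say whether a line is 1 clone.

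Each condition has 1 library, and for BMDMs 3 biological replicates were mixed into it, so each comparison sets 1 library against 1 and has no replicate check. A model of genotype and treatment together over the 6 BMDM libraries was not run. Limits given below are 95% exact limits on the reads and cover counting error only. A gene is said to be called where the fold change was at least 1.2, a fold given in the study's methods, and the share of all genes called at that fold is given beside each first count. In bulk libraries, fewer cells of a type and less RNA per cell cannot be told apart.

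BMDM libraries held 22597425 to 28386646 counts and Raw264.7 libraries 15127110 to 21042507 reads. At least 8 of 10 macrophage markers had more than 3 reads in every library. Zmynd8 counts in WT and cKO were 2284 and 1842 without treatment, 1967 and 2033 in the LPS pair, and 3636 and 3944 in the IL-4 pair. They were thus not clearly reduced in the libraries labelled cKO, although counts of the whole gene do not resolve the floxed exons. Lyz2, the locus that carries Cre in cKO, was lower in cKO in each pair, with 287004 and 162753 counts for NT, 171869 and 67763 for LPS, and 253808 and 137038 for IL-4. The titles of the IL-4 libraries carry sample numbers (S62 and S63) apart from those of the NT and LPS libraries (S91 to S94), and the length column of their table differs for 36.5% of genes. They also held more neutrophil marker RNA, 383 and 515 CPM (counts scaled to a common library total) in sum over 8 markers, against 2.33 to 4.22 in the NT and LPS libraries. The 3 libraries of the Zmynd8 lines stood apart from the p65 lines and from their label. Their summed neutrophil markers were 4436 to 10410 CPM, with all 8 above 3 reads. In the p65 lines only 3 of the 8 markers are listed, and these summed to 0.18 to 0.319. Raw264.7 is a male line, yet the Zmynd8 lines had 7109 to 8467 Xist reads and 0 to 4 reads of Y-linked genes, whereas the p65 lines had 0 to 3 and 869 to 3495. Rows for 18S and 45S RNA took 8.17% to 17.1% of their reads, against 0.228% to 0.636%.

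The C1q genes lie side by side on the minus strand of chromosome 4 in mm10, C1qb at chr4:136880145-136886177, C1qc at chr4:136889802-136892932 and C1qa at chr4:136895916-136898844, within 18.7 kb. C3 lies at chr17:57203967-57228136 and Cfb at chr17:34856374-34862514. C3ar1 is at chr6:122847140-122856157, Cfp at chrX:20925454-20931555 and Serping1 at chr2:84765360-84775444, all on the minus strand. RefSeq promoter sequence (GRCm38.p6, the assembly of mm10) was matched for 5 of the 8 genes, C1qb, C1qc, C3, C3ar1 and Cfp. Shown are the 250 bases before the start of C3, the gene with the widest range of level among these 5 in BMDMs, and of the neighbours C1qb and C1qc, the most abundant of the 8 RNAs in untreated WT cells. Each is written 5′ to 3′ on the gene's strand, with motif matches in capitals. The positions are chr17:57228137-57228386 for C3, chr4:136886201-136886450 for C1qb and chr4:136892915-136893164 for C1qc. The starts are those of the promoter sequences. For C1qb and C1qc they are not the ends of the gene coordinates given above. The C1qc window overlaps those coordinates and the C1qb window stands apart from them.
C3: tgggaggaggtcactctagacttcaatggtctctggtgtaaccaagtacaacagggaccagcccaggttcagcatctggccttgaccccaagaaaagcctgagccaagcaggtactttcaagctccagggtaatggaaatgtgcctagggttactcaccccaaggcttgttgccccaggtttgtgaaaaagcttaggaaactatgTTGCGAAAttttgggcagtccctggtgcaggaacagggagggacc
C1qb: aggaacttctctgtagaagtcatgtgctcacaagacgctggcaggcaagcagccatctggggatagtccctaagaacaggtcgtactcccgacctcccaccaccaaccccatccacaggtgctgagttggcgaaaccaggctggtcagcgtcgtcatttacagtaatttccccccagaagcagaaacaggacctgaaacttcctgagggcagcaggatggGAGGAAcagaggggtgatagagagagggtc
C1qc: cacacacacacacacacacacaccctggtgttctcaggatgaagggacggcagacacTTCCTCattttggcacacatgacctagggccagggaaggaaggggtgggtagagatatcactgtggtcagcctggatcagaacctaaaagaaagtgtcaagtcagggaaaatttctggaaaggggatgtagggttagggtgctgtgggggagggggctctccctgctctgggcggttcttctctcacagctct

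Motifs were searched on both strands of these 250 bases. The kB motif GGGA-NN-TTCC, present in 1.21% of the 32851 promoters of the table, the ISRE GAAA-NN-GAAA, present in 2.98%, and the GAS motif TTCNNNGAA, present in 7.02%, had no match in any of the 5 promoters. The PU.1/ETS core GAGGAA, present in 23.3% of promoters, matched once in C1qb, at 30 to 25 bases before the start, and once in C1qc on the opposite strand, at 193 to 188 bases before it. A C/EBP motif, TTGCNNAA, was added after the values had been seen. It matched once in C3, at 45 to 38 bases before the start, and is present in 9.56% of promoters. None of the 5 motifs matched in the C3ar1 or Cfp window.

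In untreated WT BMDMs, C1qb and C1qc were among the most abundant RNAs of the cell and Cfb and C3 were far below them. Levels are compared between genes as deposited TPM, which is per length. The deposited lengths of C1qc, C3, Cfb, Cfp and Serping1 are not the same for the IL-4 libraries as for the NT and LPS libraries. For C3 they are 5136 and 315 bases, while its WT log2 fold change after IL-4 was 3.05 on TPM and 3.08 on CPM. C1qb stood at 1940 TPM, rank 54 of 17066 genes above 0, and C1qc at 1355 TPM, rank 98. C3ar1 followed at 580 TPM and Cfp at 458 TPM, and C1qa was lower than both at 240 TPM. C3 was at 59.7 TPM, rank 2147, and Cfb at 13.1 TPM, rank 6264. Serping1 had 0 counts, with a 95% exact upper limit of 0.141 CPM. After LPS in WT cells, C3 stood at 1085 TPM (rank 137) and Cfb at 1176 TPM (rank 126), so both were then in the range of C1qc, at 978 TPM. After IL-4 the C1q chains led the list, with C1qb at rank 16, C1qc at rank 28 and C1qa at rank 32.

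**Figure D1:**
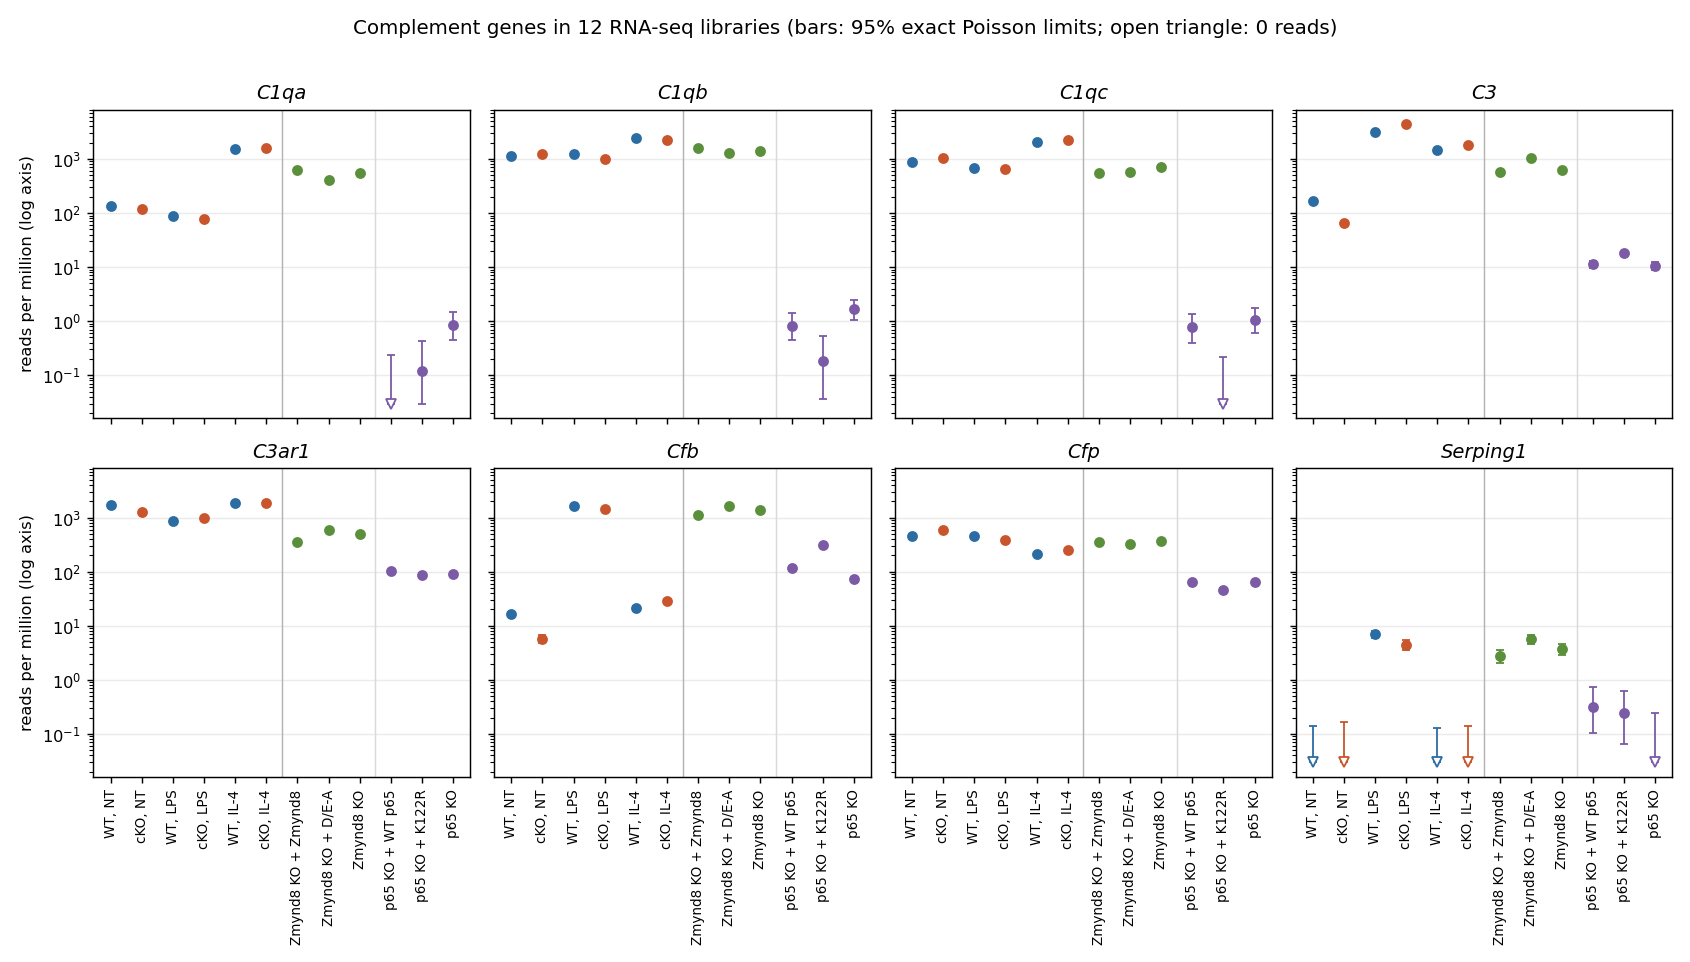
Level of each complement gene in the 12 libraries, in CPM on a log axis, with 95% exact Poisson limits. Blue points are WT BMDMs, orange points cKO BMDMs, green points the Zmynd8 lines and purple points the p65 lines of Raw264.7 cells, and an open triangle marks a library with 0 reads, drawn at the bottom with its upper limit. Cfb spans 5.75 to 1624 CPM in BMDMs, and the C1q genes are at or under 1.65 in the p65 lines.

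LPS treatment raises the question of which complement genes belong to the M1 response. Among the 8 genes, C3, Cfb and Serping1 were higher after LPS in both genotypes. Cfb was 93.6-fold higher in WT and 210-fold higher in cKO, and C3 was 18.8-fold and 66.6-fold higher. The C1q genes, C3ar1 and Cfp showed small differences, and the direction of most of them depended on the scaling.

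Cfb, the protease subunit of the alternative pathway enzyme, had 429 counts in WT NT and 130 in cKO NT, against 40452 in WT LPS and 33273 in cKO LPS. In CPM these are 16.4, 5.75, 1624 and 1420. The log2 fold change was 6.55 in WT (limits 6.50 to 6.77) and 7.72 in cKO (7.70 to 8.21). The larger value in cKO went with the lower NT level of that library, and the LPS levels of the genotypes were close.

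C3, the protein on which all complement pathways converge, had 4442 and 1478 counts in the WT and cKO NT libraries and 79596 and 103656 after LPS, or 169, 65.4, 3196 and 4424 CPM. Its log2 fold change was 4.23 in WT (4.19 to 4.28) and 6.06 in cKO (6.01 to 6.15). Of the 12 libraries, cKO LPS had the highest C3 level.

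Serping1, the inhibitor of C1r and C1s, had 0 counts in both NT and both IL-4 libraries and 173 and 104 counts in WT and cKO after LPS. With the 0 counts set to a floor of 3, it was 60.7-fold higher in WT and 33.4-fold higher in cKO. The lower limits on the reads were 5.61 and 4.74 on the log2 scale. Even so it remained rare, at 6.95 and 4.44 CPM, and it was the only one of the 8 genes detected in BMDMs after LPS alone.

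Of the 7 genes with more than 3 counts in both libraries, 5 were called in WT (2 higher, 3 lower), where 84.8% of all genes were called (21.7% higher, 63.1% lower), and 7 in cKO (2 higher, 5 lower), where 85.5% were (25.0% higher, 60.5% lower). The 2 that were higher were C3 and Cfb, and both also passed a fold of at least 2, which 43.3% and 46.0% of all genes passed, 10.5% and 13.2% of all genes in that direction. The median of all genes was itself -0.58 in WT and -0.55 in cKO under scaling by library totals, so a gene at that value kept its place among the others. With the median ratio, which shifted the median of all genes by 0.66 and 0.62, the split became 5 higher and 0 lower in WT and 4 higher and 0 lower in cKO. With TMM it was 4 higher and 1 lower in WT and 2 higher and 0 lower in cKO, and with deposited TPM 2 higher and 3 lower in both.

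C1qa, the A chain, went from 133 to 86.9 CPM in WT and from 120 to 78.4 in cKO, a log2 fold change of -0.61 in both that became 0.09 and 0.04 with the median ratio. C1qc, the C chain, went from 887 to 676 and from 1029 to 656, or -0.39 and -0.65 under library totals and 0.32 and 0.01 with the median ratio. C1qb, the B chain, went from 1146 to 1236 in WT (0.11) and from 1262 to 1013 in cKO (-0.32), and with the median ratio both were higher (0.82 and 0.34). These differences are of the size of the shift between scalings, and no direction is given for the C1q genes after LPS.

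C3ar1, the receptor for C3a, went from 1693 to 878 CPM in WT (-0.95) and from 1280 to 1001 in cKO (-0.35). With the median ratio the values were -0.24 and 0.31, so the direction held in WT and turned in cKO. Cfp, which stabilises the C3-cleaving enzyme, had 11837 and 11286 counts in WT, a log2 fold change of 0.00 (limits -0.03 to 0.04) that became 0.71 with the median ratio and 0.59 with TMM, and 13210 and 9137 in cKO (-0.58, and 0.08 with the median ratio).

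Other genes of the cascade were followed in a list of 54, of which 23 passed the filter of a mean of at least 10 counts in WT and 22 in cKO. In WT, 5 were called higher and 16 lower, and in cKO 6 higher and 13 lower, with medians of -0.86 and -0.70 beside -0.58 and -0.55 for all genes. Of the classical pathway proteases and their substrates, 4 of 5 tested were called higher in WT and 5 of 5 in cKO. The highest was C1ra, the protease C1r, with 137 and 1263 counts in WT (log2 fold change 3.05) and 56 and 1160 in cKO (3.86). Among receptors, 10 of 10 tested were called lower in WT and 8 of 10 in cKO. Cd93, a phagocyte receptor once proposed to bind C1q, went from 11553 to 623 counts in WT (-4.09) and from 7284 to 510 in cKO (-3.83), and C5ar1, the receptor for C5a, from 18758 to 1040 in WT (-4.07). Beside these, 19 of 20 interferon-response genes were called higher in either genotype, with medians of 3.44 and 5.09, and 15 of 16 NF-κB targets, with medians of 2.23 and 2.56. Whether they share control with C3, Cfb or Serping1 was not tested.

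**Figure D2:**
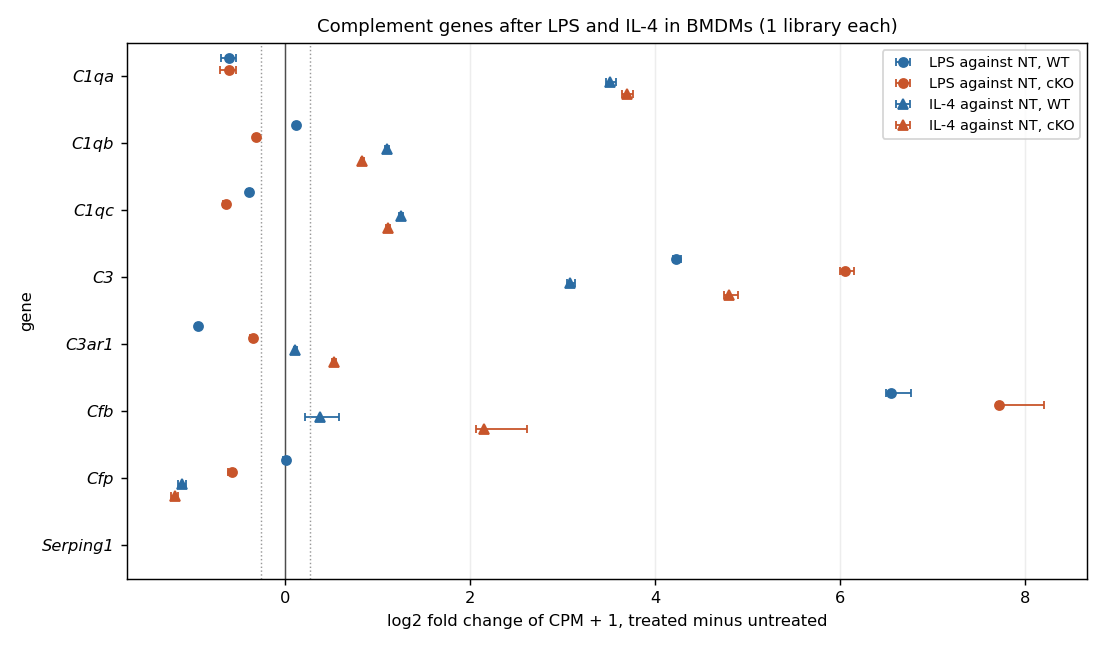
Log2 fold change on CPM plus 1 of each complement gene after LPS (circles) and IL-4 (triangles) against the NT library of the same genotype, WT in blue and cKO in orange. Bars are 95% exact limits on the reads, which are computed without the added 1 and so need not centre on the point, and dotted lines mark a fold of 1.2. Serping1 has no point because its NT and IL-4 libraries hold 0 counts. C3 and Cfb lie far to the right after LPS, and C1qa after IL-4.

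IL-4 gave another pattern, in which all 3 C1q genes and C3 were higher, Cfp was lower, and Serping1 had no count. The LPS and IL-4 comparisons of a genotype share its NT library. C1qa had the largest difference of the C1q chains, 11.4-fold in WT and 12.9-fold in cKO. C3 was 8.45-fold higher in WT and 27.8-fold in cKO. Of the 7 genes with more than 3 counts, 6 were called in WT (5 higher, 1 lower), where 64.4% of all genes were called (41.3% higher, 23.1% lower), and 7 in cKO (6 higher, 1 lower), where 70.9% were (44.7% higher, 26.2% lower). At a fold of at least 2, 5 genes were called in each genotype (4 higher, 1 lower), against 16.2% of all genes in WT (10.0% higher, 6.19% lower) and 21.1% in cKO (15.0% higher, 6.09% lower). The IL-4 libraries differ from the NT libraries in these sample numbers, in the length column and in neutrophil marker RNA as well as in treatment, and these cannot be told apart.

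C1qa had 3489 counts in WT NT and 2722 in cKO NT, against 43424 and 40963 after IL-4. Its log2 fold change was 3.51 in WT (limits 3.47 to 3.57) and 3.69 in cKO (3.65 to 3.76). C1qb was higher by less, from 30031 to 69751 counts in WT (2.14-fold) and from 28518 to 58713 in cKO (1.78-fold), and C1qc went from 23236 to 59730 (2.37-fold) and from 23254 to 57951 (2.15-fold). The IL-4 levels of each chain lay above all 4 other BMDM libraries.

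C3 went from 169 to 1440 CPM in WT (log2 fold change 3.08, limits 3.04 to 3.13) and from 65.4 to 1845 in cKO (4.80, 4.74 to 4.89). It was therefore high after both treatments, with LPS above IL-4 in each genotype. Cfb, in contrast, reached only 21.5 and 29.0 CPM after IL-4, and its log2 fold change was 0.37 in WT (0.21 to 0.57) and 2.15 in cKO (2.07 to 2.62). The WT value of Cfb fell under the 1.2-fold limit with the median ratio (0.22), TMM (0.20) and deposited TPM (0.11).

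Cfp went from 452 to 208 CPM in WT (-1.12, limits -1.16 to -1.07) and from 585 to 254 in cKO (-1.20, -1.24 to -1.16), and its IL-4 levels were the lowest of the BMDM libraries. C3ar1 went from 1693 to 1822 in WT (0.11) and from 1280 to 1847 in cKO (0.53). The WT value turned sign with the median ratio (-0.06) and TMM (-0.07). The neutrophil marker sum, 383 in WT IL-4 and 515 in cKO IL-4, moves with the IL-4 differences of all of these genes. NF-κB targets were called higher for 12 of 15 in WT (median 1.91) and 15 of 16 in cKO (2.40). Interferon-response genes were called lower for 16 of 20 in WT (-0.79) and higher for 19 of 20 in cKO (1.35). The Cfb values beside them were 0.37 and 2.15, and that of WT fell inside the 1.2-fold limit with the scalings given above. The part of these lists in the differences was not tested.

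Among the 54 other complement genes, 26 were tested in WT and 23 in cKO after IL-4. In WT 6 were called higher and 12 lower, and in cKO 10 higher and 6 lower, with medians of -0.22 and 0.13. Itgax, a subunit of complement receptor 4, went from 1313 to 6882 counts in WT (log2 fold change 2.25) and from 1532 to 5475 in cKO (1.61), while C5ar1 went from 18758 to 2764 (-2.87) and from 14995 to 2238 (-2.94).

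The ratio of the chains to each other within a library needs no scaling. C1q is assembled from A, B and C chains in equal number. In NT and LPS libraries the C1qa/C1qb ratio of counts was 0.116 in WT NT (limits 0.112 to 0.120), 0.0954 in cKO NT, 0.0703 in WT LPS and 0.0774 in cKO LPS. After IL-4 it was 0.623 in WT (0.615 to 0.630) and 0.698 in cKO, so the IL-4 libraries did not overlap the other 4. The C1qc/C1qb ratio varied less, from 0.547 in WT LPS to 0.987 in cKO IL-4. As TPM, the C1qa/C1qb ratio was 0.123 in WT NT and 0.662 in WT IL-4. The deposited lengths of C1qa (1040 bases) and C1qb (1088 bases) were the same in all 3 BMDM tables, while that of C1qc was 946 in the NT and LPS tables and 1203 in the IL-4 table. In the same order the lengths were 315 and 5136 for C3, 655 and 2751 for Cfb, 401 and 1636 for Cfp, and 903 and 1768 for Serping1. That of C3ar1 did not differ.

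**Figure D3:**
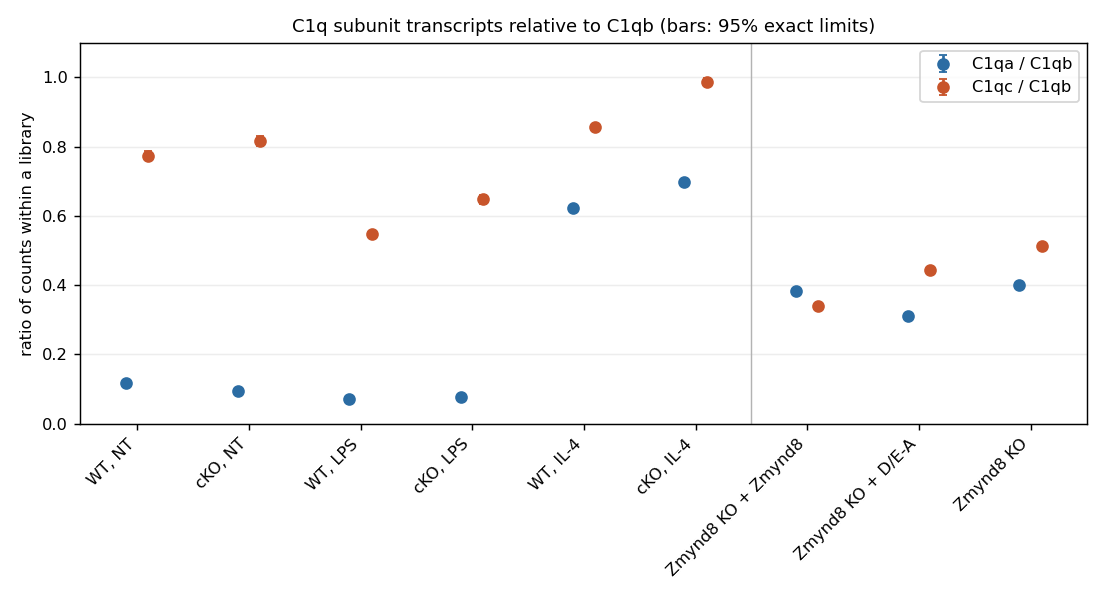
Ratio of C1qa (blue) and C1qc (orange) counts to C1qb counts within each of the 6 BMDM libraries and the 3 Zmynd8 lines of Raw264.7 cells, with 95% exact limits. The p65 lines are left out because they hold at most 25 reads of any C1q gene. The C1qa/C1qb ratio is 0.0703 to 0.116 in NT and LPS BMDMs and 0.623 to 0.698 after IL-4.

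The next comparison asks how the libraries labelled Zmynd8 cKO differed from WT under the same treatment. C3 and Cfb were 2.57-fold lower in cKO without treatment, while C3 was 1.38-fold higher after LPS, and C3 and Cfb were 1.28-fold and 1.34-fold higher with IL-4. No gene of the 8 was called in 1 direction under all 3 conditions. Scaled by library totals, the C1q genes differed by 1.22-fold at most.

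Without treatment, 4 of the 7 genes with enough counts were called (1 higher, 3 lower), where 54.0% of all genes were called (25.0% higher, 29.0% lower), and with deposited TPM 4 genes were called lower and 0 higher. C3 and Cfb also passed a fold of 2, as 3.83% of all genes did in either direction and 2.86% downwards. The log2 fold change of C3 was -1.36 (limits -1.46 to -1.29) on 4442 and 1478 counts, and that of Cfb -1.36 (-1.80 to -1.22) on 429 and 130. C3ar1 was lower by less, 44369 against 28914 counts (-0.40). Cfp was higher, 11837 against 13210 counts (0.37), and with deposited TPM the difference was 0.11.

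In the same NT pair, 20 of 20 interferon-response genes were called lower, 18 of them by at least 2-fold, with a median log2 fold change of -1.77. The sum of their levels was 5084 CPM in WT and 1376 in cKO. NF-κB targets had a median of -0.01. The interferon-response genes thus moved with C3 and Cfb, and their part in the difference was not tested. Of the 54 other complement genes 23 were tested, 4 called higher and 8 lower, with a median of -0.09. Itgam, a subunit of complement receptor 3, went from 860 CPM in WT to 522 in cKO (-0.72), and Lrp1, an endocytic receptor, from 2760 to 1755 (-0.65). C5ar2, the second C5a receptor, was higher in cKO, at 26.3 against 13.6 CPM (0.90).

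After LPS, 3 of 8 genes were called (1 higher, 2 lower), where 35.9% of all genes were called (22.6% higher, 13.3% lower), and 0 passed a fold of 2, which 0.904% did. C3 was higher in cKO, 3196 against 4424 CPM (0.47, limits 0.46 to 0.48). C1qb was lower, 1236 against 1013 (-0.29, -0.31 to -0.26), and Serping1 was lower, 173 against 104 counts (-0.55, -1.01 to -0.29). With deposited TPM 2 genes were called higher and 1 lower, C1qb falling inside the 1.2-fold limit (-0.20) and C3ar1 passing it (0.27). Cfb was 1624 in WT and 1420 in cKO (-0.19), inside the limit. Interferon-response genes had a median of -0.05 here and NF-κB targets 0.33, with 10 of 16 called higher. Of the other complement genes 24 were tested, 8 called higher and 5 lower. Itgam was called again, now higher in cKO, at 474 against 750 CPM (0.66), and C2, the classical pathway counterpart of factor B, was lower, with 256 against 121 counts (-0.87).

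After IL-4, 3 of 7 genes were called, all higher in cKO, where 30.7% of all genes were called (17.3% higher, 13.4% lower), and 0 passed a fold of 2, which 1.97% did. C3 had 1440 CPM in WT and 1845 in cKO (0.36, limits 0.34 to 0.38). Cfb had 610 and 759 counts (0.42, 0.28 to 0.59), and Cfp 5900 and 6645 (0.29, 0.24 to 0.34). With deposited TPM the Cfp difference was 0.26 and was not called, which left 2 genes. C1qa, C1qb, C1qc and C3ar1 differed by 0.04, -0.13, 0.08 and 0.02 on the log2 scale. In this pair 18 of 20 interferon-response genes and 14 of 16 NF-κB targets were called higher, with medians of 1.15 and 0.83, and neutrophil markers summed to 383 in WT and 515 in cKO. Their part in the C3 and Cfb values was not tested. Of 23 other complement genes tested, 7 were called higher and 5 lower, with C5ar2 highest at 282 against 734 counts (1.41).

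**Figure D4:**
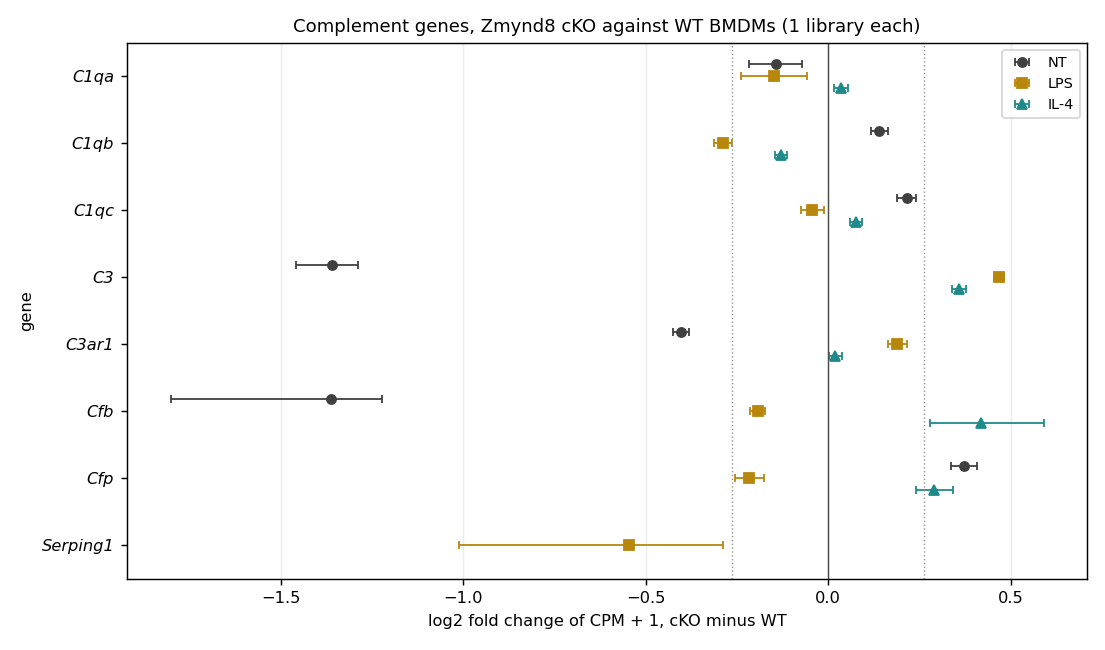
Log2 fold change on CPM plus 1, cKO minus WT BMDMs, for NT (dark circles), LPS (yellow squares) and IL-4 (teal triangles), with 95% exact limits on the reads and dotted lines at a fold of 1.2. C3 and Cfb sit at -1.36 without treatment, and C3 lies at 0.47 with LPS and at 0.36 with IL-4. Serping1 has a point only after LPS.

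Raw264.7 cells were set beside the BMDMs as CPM, and levels across these tables rest on separate normalizations. The C1q genes gave the widest gap. C1qb was 1311 to 1617 CPM in the Zmynd8 lines, and in the p65 lines it was 0.83 with WT p65, 0.18 with K122R and 1.65 in p65 KO. The 3 chains summed to 2299 to 2787 in the Zmynd8 lines and to 0.3 to 3.57 in the p65 lines, or 5 to 54 reads. C1qa had 0 reads with WT p65, 2 with K122R and 13 in p65 KO, and C1qc had 12, 0 and 16. Cfb, C3, C3ar1 and Cfp were also higher in the Zmynd8 lines. The share of all genes that separate the sets of lines was not computed, so this is not read as particular to these genes. The differences between the sets move with the neutrophil marker sum, the Xist and Y-linked reads and the 18S and 45S share given above. They cannot be told apart from how each set of lines was made.

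In order of level, C3 in the Zmynd8 lines was 1044 CPM with D/E-A, 627 in Zmynd8 KO and 576 with WT Zmynd8, and in the p65 lines 18.1 with K122R, 11.4 with WT p65 and 10.5 in p65 KO, of which the last pair overlapped within counting error. Cfb was 1611, 1355 and 1124 in the same order of the Zmynd8 lines, and 306, 118 and 73.6 in the p65 lines. C3ar1 was 590, 502 and 347 in the Zmynd8 lines, and 87.8 to 101 in the p65 lines. Cfp was 324 to 363 in the Zmynd8 lines and 45.7 to 64.3 in the p65 lines, with p65 KO and WT p65 overlapping. Serping1 was 2.72 to 5.58 in the Zmynd8 lines and had 5, 4 and 0 reads in the p65 lines.

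D/E-A against WT Zmynd8 asks what changes when ZMYND8 with a mutated disordered region takes the place of the intact protein. Serping1, C3, C3ar1 and Cfb were higher with D/E-A and C1qa and C1qb were lower. That is 6 of 8 genes called (4 higher, 2 lower), where 72.6% of all genes in that table were called (36.7% higher, 35.9% lower). The count is thus close to the share among all genes. Zmynd8 itself had 485 reads with WT Zmynd8, read from the listing beside Zmynd8 KO, and 497 with D/E-A. The WT Zmynd8 library is also listed beside D/E-A. Reads were equal in both listings for 12769 of 12770 genes, with a largest difference of 375. Which gene differed was not recorded, so 485 and 497 are not set against each other. The Zmynd8 KO value of Zmynd8 did not come out as whole reads and was not used. The knockout and the rescues are thus taken from the labels. The p65 lines had 1070 to 1826 Zmynd8 reads. No gene in the D/E-A table had fewer than 21 WT Zmynd8 reads. Deposited values are reads divided by a size factor, and fold changes were computed within a table on the value plus 1.

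With D/E-A, Serping1 had 100 reads against 50 with WT Zmynd8 (log2 fold change 1.05, limits 0.56 to 1.59), and it alone passed a fold of 2, as 18.4% of all genes did (6.94% higher). C3 had 18721 against 10601 reads (0.89, 0.85 to 0.92), C3ar1 10574 against 6383 (0.80, 0.75 to 0.84) and Cfb 28889 against 20683 (0.55, 0.52 to 0.58). C1qa was lower, 7292 against 11416 (-0.58, -0.62 to -0.54), and so was C1qb, 23508 against 29756 (-0.27, -0.30 to -0.25), while C1qc was 10423 against 10096 (0.11) and Cfp 5812 against 6443 (-0.08). The C1q chains thus did not differ together. The C1qa/C1qb ratio was 0.310 with D/E-A and 0.384 with WT Zmynd8, and C1qc/C1qb was 0.443 and 0.339.

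Zmynd8 KO was compared with the same WT Zmynd8 library, so the values of these comparisons are not independent of each other. C3ar1 (10561 against 6383 reads, 0.61), C1qc (15087 against 10096, 0.46) and Cfb (28510 against 20683, 0.34) were higher in KO. Serping1, at 77 against 50 reads (0.49), was called too, but its limits of -0.03 to 1.05 include no change. That is 4 of 8 genes called, all higher, where 70.3% of all genes were called (33.8% higher, 36.5% lower), and 0 passed a fold of 2, which 25.6% did. C3 was 13196 against 10601 (0.20), Cfp 7633 against 6443 (0.12), C1qa 11778 against 11416 (-0.08) and C1qb 29424 against 29756 (-0.14).

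Summed neutrophil markers were 10410 CPM with WT Zmynd8, 4436 with D/E-A and 6989 in KO, and summed macrophage markers 5505, 9881 and 7003. The 18S and 45S rows took 17.1%, 8.17% and 13.8% of reads. Interferon-response genes had medians of 0.70 with D/E-A and 0.39 in KO, with 13 and 12 of 20 called higher. All of these move with the order of C3, Cfb and C3ar1 in the 3 libraries, and their part was not tested. Of the other complement genes, 12 of 22 tested were called higher and 4 lower with D/E-A, and 19 of 33 higher and 3 lower in KO. Of those averaging 100 or more reads, Lrp1 was highest with D/E-A (3971 against 1691 reads, 1.30), and Itgam was higher in both, 3960 reads in the reference library against 7996 with D/E-A and 6617 in KO. Clu, clusterin, a fluid-phase inhibitor of the terminal complex, was lower in both, with 283, 162 and 220 reads.

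K122R against WT p65 asks what changes when the acetylated lysine of p65 is replaced by arginine. Cfb was 2.87-fold higher with K122R, the largest difference among these genes in the 4 Raw264.7 comparisons where both libraries had more than 3 reads. It had 5095 reads against 1842 (1.52, limits 1.45 to 1.60). C3 had 301 against 179 (0.80, 0.53 to 1.08), and Cfp was lower, 761 against 999 (-0.34, -0.48 to -0.20). C3ar1 had 1463 against 1587 reads (-0.06, -0.17 to 0.04), inside counting error. Of the 5 genes with more than 3 reads in both libraries, 3 were called (2 higher, 1 lower), where 63.3% of all genes were called (30.8% higher, 32.5% lower). Cfb alone passed a fold of 2, as 20.0% of all genes did (10.5% higher). With reads divided by the library total the split was 2 higher and 2 lower, Serping1 being added on 4 and 5 reads. C1qa, C1qb and C1qc had 2, 3 and 0 reads with K122R against 0, 13 and 12. The ratio of C1qb had limits of -4.51 to -0.20 on the log2 scale. That of C1qc was 3.85-fold lower against the floor of 3 reads, with an upper limit of -1.42. Both rest on these few reads.

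p65 KO was compared with the same WT p65 library. Cfb was lower, 1113 against 1842 reads (-0.68, limits -0.79 to -0.57), the opposite direction to K122R. C1qb (25 against 13 reads, 0.94, -0.03 to 2.08) and C1qc (16 against 12, 0.43, -0.71 to 1.68) were called on the fold, but their limits include no change. That is 3 of 6 genes called (2 higher, 1 lower), where 51.9% of all genes were called (26.3% higher, 25.7% lower), and 0 passed a fold of 2, which 15.8% did. C3 (159 against 179, -0.12), C3ar1 (1381 against 1587, -0.15) and Cfp (972 against 999, 0.01) were not called. C1qa had 13 reads against 0, which is 4.48-fold higher against the floor, with a lower limit of 1.66 on the log2 scale. Serping1 had 0 against 5, with limits that include no change.

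Rela itself had 1601 reads with WT p65, 5850 with K122R and 765 in p65 KO, the same order as Cfb across the 3 lines. Interferon-response genes were called higher for 12 of 20 with K122R (median 0.31) and for 0 of 20 in KO (0.07). NF-κB targets had medians of 0.37 and -0.16. The part of the Rela level in the Cfb values was not tested. Of the other complement genes, 14 of 32 tested were called higher and 10 lower with K122R, and 11 of 31 higher and 8 lower in KO. Of those averaging 100 or more reads, Clu was highest in KO, with 3171 against 1267 reads (1.37).

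**Figure D5:**
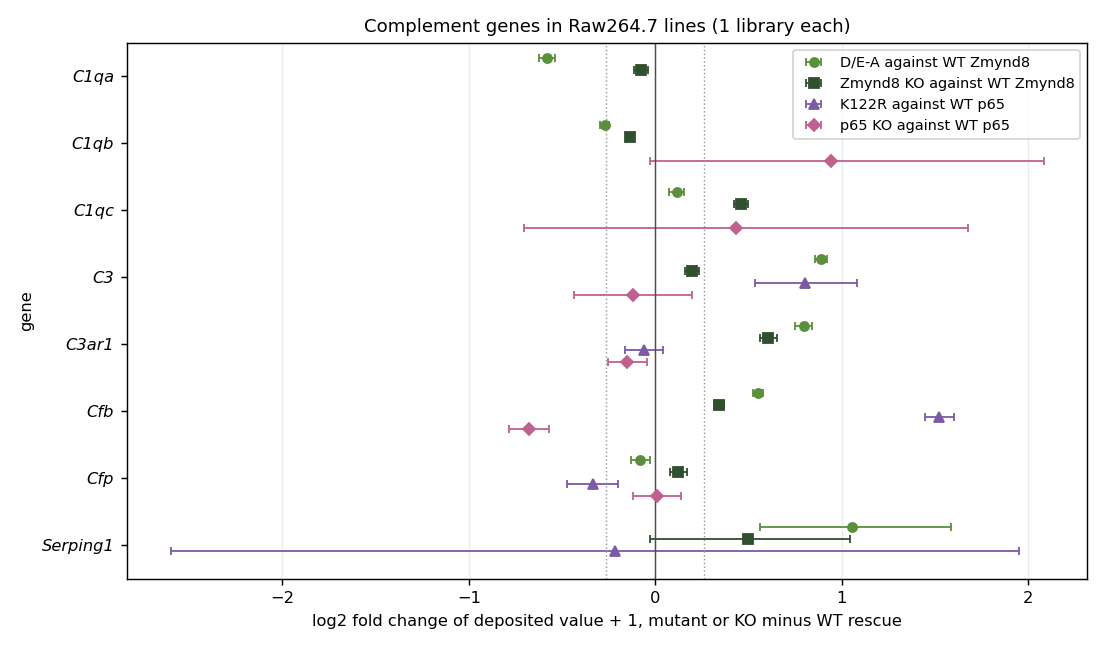
Log2 fold change on the deposited value plus 1 of each complement gene in Raw264.7 lines: D/E-A (light green circles) and Zmynd8 KO (dark green squares) against WT Zmynd8, and K122R (purple triangles) and p65 KO (pink diamonds) against WT p65. Bars are 95% exact limits on the reads and dotted lines mark a fold of 1.2, and genes with 3 or fewer reads in a library have no point. Cfb sits at 1.52 with K122R and at -0.68 in p65 KO, and the C1qb and C1qc values of p65 KO have bars that cross 0.

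Across the 6 BMDM libraries the genes kept a few shared patterns, described here by Pearson's r of log2(CPM + 1). WT and cKO points of a treatment share a deposited table, and these are descriptions of 6 libraries. C1qa and C1qb had r = 0.98, C1qa and C1qc 0.98 and C1qb and C1qc 0.96. C3 and Cfb had r = 0.79, and Cfp went against C1qa (-0.89). Among 9933 genes averaging 100 or more counts, those nearest in pattern were Tmem26 for C1qa (r = 1.00), Eif2ak1 for C1qb, Ltc4s for C1qc, Olfr56 for C3, Ice1 for C3ar1, Tmem67 for Cfb and Cstb for Cfp, all at r of at least 0.99. How high the best r is for genes in general was not computed.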

How the data were processed

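RNA-seq of 12 libraries was analysed, and the other 35 of the 47 samples were not analysed here. Per the study's methods the authors prepared poly-A RNA and aligned reads to mm10 with TopHat. For BMDMs the authors deposited estimated counts per gene (by a counter not given in the sources used here, and rounded to whole numbers for this work) with TPM and a length column. For Raw264.7 cells the authors deposited normalized values (a signal: whole reads divided by a size factor), from which reads were recovered within 0.02 reads. The planned tests assumed counts for these tables. The WT Zmynd8 library is listed beside both Zmynd8 KO and D/E-A, with equal recovered reads for 12769 of 12770 genes and a largest difference of 375. The authors' own fold changes, p-values, adjusted p-values and marks were not used, nor were 2 columns that no label matches. Rows without a gene name or counts (431, 431 and 2) were left out. Itgam has 2 identifiers in the BMDM tables, and the one with more counts was used.

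Fold changes were computed on log2(CPM + 1) where the mean was 10 counts or more, or on log2(deposited value + 1) within a table for a mean of at least 1. Limits at 95% were exact Clopper-Pearson on reads and Poisson for levels, and the floor was 3 counts. With 1 library per condition no test was run. Alternatives were scaling by the median ratio or TMM, deposited TPM, reads over the library total, other pseudocounts, filters and folds. Named were all 8 genes, Zmynd8, Rela and Lyz2 as checks, the 2 highest and 2 lowest other complement genes called at a mean of 100 counts or more (fewer are printed, and some results are not reported here), and the 3 genes most alike in pattern. The genes and lists were chosen with earlier results of these data known. Python 3.11.15, pandas 2.3.3, scipy 1.17.1, R 4.3.3 and edgeR 4.0.16 were used, and the scripts were tested on simulated data.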

Additional observations from a re-analysis of the deposited data

Results flagged for a closer look

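C3 differed between cKO and WT BMDMs in opposite directions under different treatments. Its log2 fold change was -1.36 in the NT pair, 0.47 in the LPS pair and 0.36 in the IL-4 pair. Cfb did the same between the NT pair (-1.36) and the IL-4 pair (0.42). Each pair is 1 library against 1, so the differences between treatments were not tested.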

How the results depend on the processing

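An analysis of genotype paired by treatment over the WT and cKO BMDM libraries was not run. Each comparison sets 1 library against 1, so no replicate could be left out. A model over the 6 BMDM libraries together was not run. Of 385 values of single genes under alternatives, 268 moved by less than counting error, 107 moved by more and 10 turned with a call, all in LPS against NT. With the median ratio these were C1qa (0.091) and C1qc (0.32) in WT, and Cfp (0.078), C1qa (0.042), C1qc (0.013), C1qb (0.34) and C3ar1 (0.31) in cKO. With TMM they were C1qc in WT (0.19), and C1qb (0.24) and C3ar1 (0.20) in cKO. Counting values inside the 1.2-fold limit, 17 signs turned. C3 and Cfb kept their direction after LPS under every scaling tried.

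Of 77 counts, 65 stayed within 1.5 times. At a fold of at least 2 the cKO comparisons held 2 genes for NT, 0 for LPS and 0 for IL-4, and LPS against NT held 2 in each genotype. In Raw264.7 cells the same fold left 1 gene for D/E-A, 0 for Zmynd8 KO, 1 for K122R and 0 for p65 KO. The count for LPS in cKO went from 7 to 4 with the median ratio and to 2 with TMM, and that for p65 KO from 3 to 1 when the limits had to exclude no change. Apart from the arithmetic of a stricter fold, the cause was not tested. Depth limits Serping1 everywhere and the C1q genes in the p65 lines, and no spread between animals or cultures can be had from these libraries.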

Other observations

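The terminal pathway genes, which encode the pore-forming proteins of complement, summed to at most 2.71 CPM over those listed, 7 of 8 in the BMDM tables and 3 or 4 of 8 in the Raw264.7 tables other than that of D/E-A, which lists 0. Cfd, the protease that activates factor B, had 0 counts in the BMDM libraries and at most 0.18 CPM in the Raw264.7 libraries that list it, which leaves out D/E-A.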
